A study of Mus musculus with 4 samples.

Results

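Genes that act in mitosis, 60 in number, are described here in mouse induced hepatocyte-like (iHep) cells grown in 3D or 2D culture. The list covers the kinases and cyclins that start mitosis, the spindle checkpoint, the kinetochore, spindle motors and the proteins of cytokinesis, together with marks of dividing cells such as Mki67. A gene was a member when the name of one of its probes in the scanner files, or an older alias of the same gene, was on the list, with no measured value used. All 60 genes had probes, 104 of the 41174 on the array, and all 60 were among the 16451 genes tested. The older names in the files were Cdc2a for Cdk1, Dlg7 for Dlgap5 and 6720460F02Rik for Pimreg, and Sgol1 is now called Sgo1.

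The cells came from C57BL/6 mice and were derived, per the labels, from cells named MDFs, an abbreviation that the labels leave unexpanded. The agents that induced them are not given in the sources used here. The 3D group held 1 array of iHep-1 and 1 of iHep-2, and so did the 2D group, iHep-1 and iHep-2 being 2 independent experiments per the design text. The 2D titles carry a plus sign that the 3D titles lack, its meaning is not given, and whatever it marks cannot be told apart from culture. With 2 arrays per group the number of arrays limits the precision, and a p-value measures the spread between 2 experiments.

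Cells enter mitosis when Cdk1, bound to cyclin A or B, becomes active, and leave it when the anaphase-promoting complex (APC/C) marks cyclin B and securin for destruction. The spindle checkpoint holds that complex back until every kinetochore, the protein plate on each centromere, is attached to the spindle, and a contractile ring then divides the cell. Most of these genes are transcribed in the G2 and M phases of the cycle and are low in resting cells. Hepatocytes of the adult liver rarely divide, re-enter the cycle when liver mass is lost, and often omit cytokinesis, which leaves cells with a pair of nuclei. In bulk RNA of this kind, fewer cycling cells and less RNA per cell cannot be told apart.

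Values below are log2 processed intensities relative to the 75th percentile of the same array, so that 0 is that percentile, and every difference is 3D minus 2D within an experiment unless another is named. Where a pair of values is given, iHep-1 comes before iHep-2. Values serve to compare arrays for 1 probe, and not 1 gene with another. A probe was well above background where the scanner software marked it so, and a difference that rests on a dimmer value is named as such.

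The labelled cell type was checked against markers. All 9 hepatocyte markers with a probe, out of a list of 10, were well above background on all 4 arrays, and their summed intensity, in multiples of the 75th percentile, was 1541 and 2322 in 3D culture, against 1573 and 1181 in 2D culture. Of 10 fibroblast markers, 7 were well above background on at least 1 array, while Dcn, Lum and Thy1 were so on none. Col1a2 and Pdgfra were well above background on all 4 arrays. The sum of the list was 7.61 and 7.65 in 3D culture, against 5.13 and 5.04 in 2D culture. Pdgfra made up most of this sum on each array, on the log2 scale 2.80 and 2.91 in 3D culture, against 2.15 and 2.25 in 2D culture. With dim probes included, 5 of the 10 were higher in 3D culture in both experiments and 3 were lower in both. Lower were, among others, Pdgfrb by -1.08 and -3.33 and Twist2 by -0.076 and -1.06. Their 3D values in iHep-2 were not well above background. The sum of 9 macrophage and leukocyte markers was 10.5 and 2.44 in 3D culture, against 6.84 and 2.66 in 2D culture. Itgam and Ptprc were not well above background on any array, and 5 of the 9 were so on all 4. Cd14 had the highest value of these on each array, on the log2 scale 3.19 and 1.11 in 3D culture, against 2.36 and 1.19 in 2D culture. The sum of 6 endothelial markers was 1.61 and 0.615 in 3D culture, against 0.777 and 0.229 in 2D culture. Kdr, Pecam1, Tek and Tie1 were not well above background on any array, and Vwf was so on all 4. For 5 biliary markers the sum was 25.3 and 30.1 in 3D culture, against 16.1 and 46.8 in 2D culture. For 5 keratinocyte markers it was 1.59 and 1.09 in 3D culture, against 0.929 and 0.686 in 2D culture. Dsg3 and Trp63 were not well above background on any array, and the other 3 were so on all 4. The part of these other cell types in the results below was not tested.

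Lower intensity in 3D culture ran through almost the whole list. Of the 60 genes, 58 were lower in 3D than in 2D culture in both experiments, against 33% of all tested genes. Only Pttg1 was higher in 3D culture in both experiments, where 33.2% of all genes were. With each array scaled to its spike-in probes, its mean difference was -0.50, beside a median of -1.08 over all genes. Of the 60, only Bub1 had opposite signs, as had 33.8% of all genes. The median difference over the 60 genes was -1.23 in iHep-1 and -4.49 in iHep-2, beside medians of -0.023 and 0.041 over all tested genes. At least 2-fold lower intensity in both experiments was found for 37 of the 60 genes, against 2.13% of all genes, and at least 2-fold higher intensity for 0 of the 60, against 4.26%. The 3D and 2D arrays did not overlap, with both 3D values lower, for 55 of the 60 genes and for 21.5% of all genes. Among genes well above background on all 4 arrays, this held for 36 of 41 members and for 3242 of all 14571.

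No gene passed the test between cultures. In limma's fit across all 16451 genes, 0 were higher and 0 lower at an adjusted p under 0.05 (0% of genes in each direction), and the smallest adjusted p was 0.497 over all genes and 0.684 over the 60. With no adjustment, limma had 36 of the 60 genes lower at a p under 0.05, against 2.98% of all genes. It had 0 of the 60 higher, against 4.05% of all genes. Among those 36 are Anln, Kif15, Pimreg and Ttk, which were kept through their 2D arrays and had to differ. Of genes well above background on all 4 arrays, 23 of 41 members were lower at that p, and 368 of all 14571. Without the 3D or the 2D array of iHep-2 those 36 became 0 and 7 (1.09% and 0.924% of all genes), and without the 3D or the 2D array of iHep-1 they became 38 and 47 (2.74% in both). Blocking on the experiment gave 0 calls, with 33 of the 60 lower at an unadjusted p under 0.05, against 4.89% of all genes. Of genes well above background on all 4 arrays, these were 22 of 41 members and 595 of all 14571. With spike-in scaling, which moved the median of all genes to -1.08, limma called 43 of the 60 lower, against 1.31% of all genes. It called 0 of the 60 higher, against 0.462%, and 57 were at least 2-fold lower in both experiments, against 20.5%. The spike-in level differed, 3D minus 2D, by 1.85 in iHep-1 and -0.096 in iHep-2. That fit gave every gene the same variance (prior degrees of freedom infinite, against 1.58 in the main fit), and its calls rest on this variance. With the block, an intensity trend and a robust prior together, 0 of the 60 were called higher, against 0.115% of all genes. Under normexp background correction, 21 were at least 2-fold lower in both experiments, against 0.79% of all genes, and with probes well above background on all 4 arrays 22 of 41 were, against 1.4%. The words lower and higher below therefore describe measured values that limma did not call with the 75th percentile as the scale, and the adjusted p of the 60 genes lay between 0.684 and 0.992 in that fit.

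The size of the difference was not alike in the 2 experiments. Each of the 58 genes lower in both was lower by more in iHep-2. Among all tested genes, 5428 were lower in both, and 3579 of these were lower by more in iHep-2. In iHep-2, 56 of the 60 genes were at least 2-fold lower in 3D culture, against 8.32% of all genes, and 36 were at least 16-fold lower, against 0.723%. Of these 36, 18 had a 3D value in iHep-2 not well above background, and the other 18 were well above background on all 4 arrays. Of all 14571 genes well above background on all 4 arrays, 44 were at least 16-fold lower in iHep-2. In iHep-1, 37 were at least 2-fold lower, against 4.07% of all genes. Over all genes the differences also spread more widely in iHep-2, with an SD of 1.20, beside 0.835 in iHep-1. The change of the culture difference between experiments was not tested, since each experiment had 1 array per culture.

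**Figure D1:**
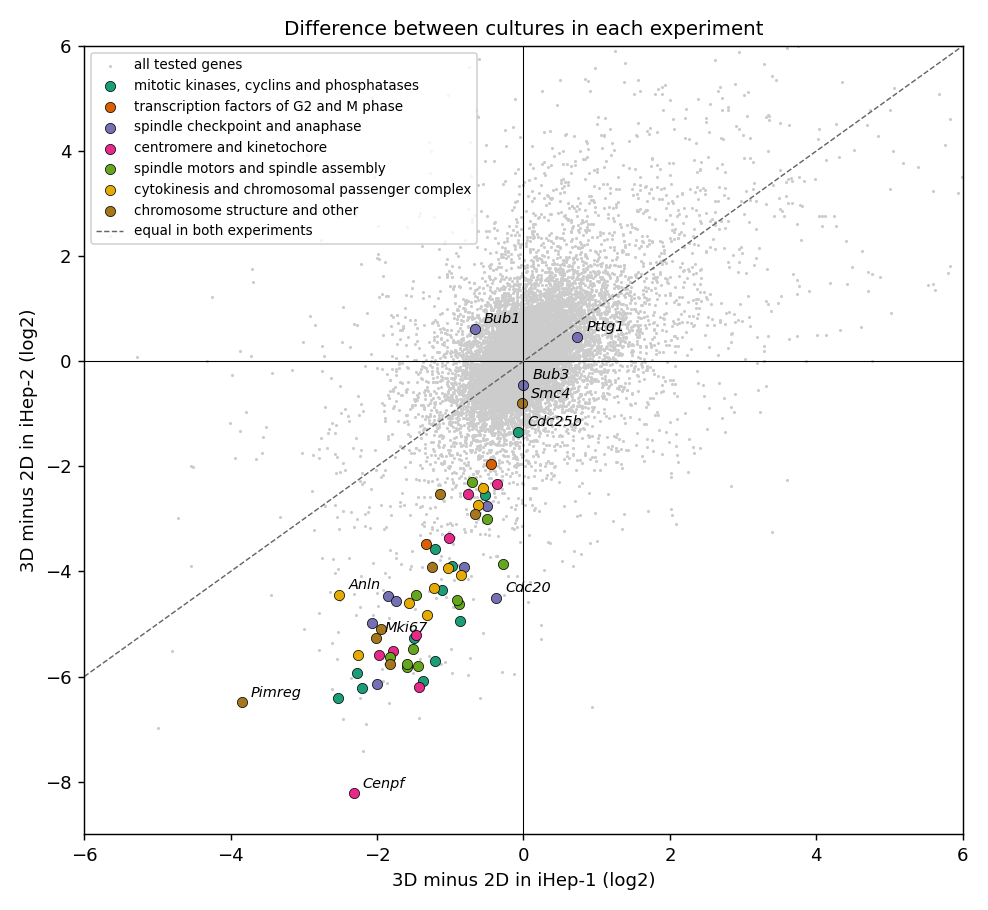
Difference, 3D minus 2D in log2 units, in iHep-1 on the horizontal axis and in iHep-2 on the vertical axis for each of the 60 genes, over all tested genes. Nearly all members lie at negative values on both axes and below the line of equal differences, with Pttg1 (below 0 under spike-in scaling) and Bub1 as the genes above 0 in iHep-2.

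Low signal touches 19 of the 60 genes, which were not well above background on the 3D array of iHep-2. Anln, Kif15, Pimreg and Ttk, 4 of the 19, were also not well above background on the 3D array of iHep-1, so that they were kept through their 2D arrays and had to differ. The other 41 genes were well above background on all 4 arrays. Their median differences were -1.03 and -3.91. Among these 41, 39 were lower in both experiments, 22 of them by 2-fold or more in both. Of all 14571 genes well above background on all 4 arrays, 4930 were lower in both, and 203 by 2-fold or more in both.

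Mki67 encodes the Ki-67 antigen of cycling cells, which coats mitotic chromosomes and is the usual stain for proliferation. Its probe lies at chr7:142881591-142881650 on the minus strand (mm9, per the scanner files), and its letters are shown because Mki67 is the best known mark of division on the list.
Mki67: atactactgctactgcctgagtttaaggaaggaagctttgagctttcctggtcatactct
Mki67 stood at -1.05 and -2.66 in 3D culture, against 0.97 and 2.61 in 2D culture. Both 3D arrays were lower than both 2D arrays, and the groups averaged -1.85 ± 1.14 in 3D and 1.79 ± 1.16 in 2D culture (SD, n = 2 each). The differences were -2.02 and -5.26, a 4.05-fold and a 38.4-fold lower intensity in 3D culture, with an adjusted p of 0.684 in limma. A further Mki67 probe gave differences of -2.03 and -4.83.

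**Figure D2:**
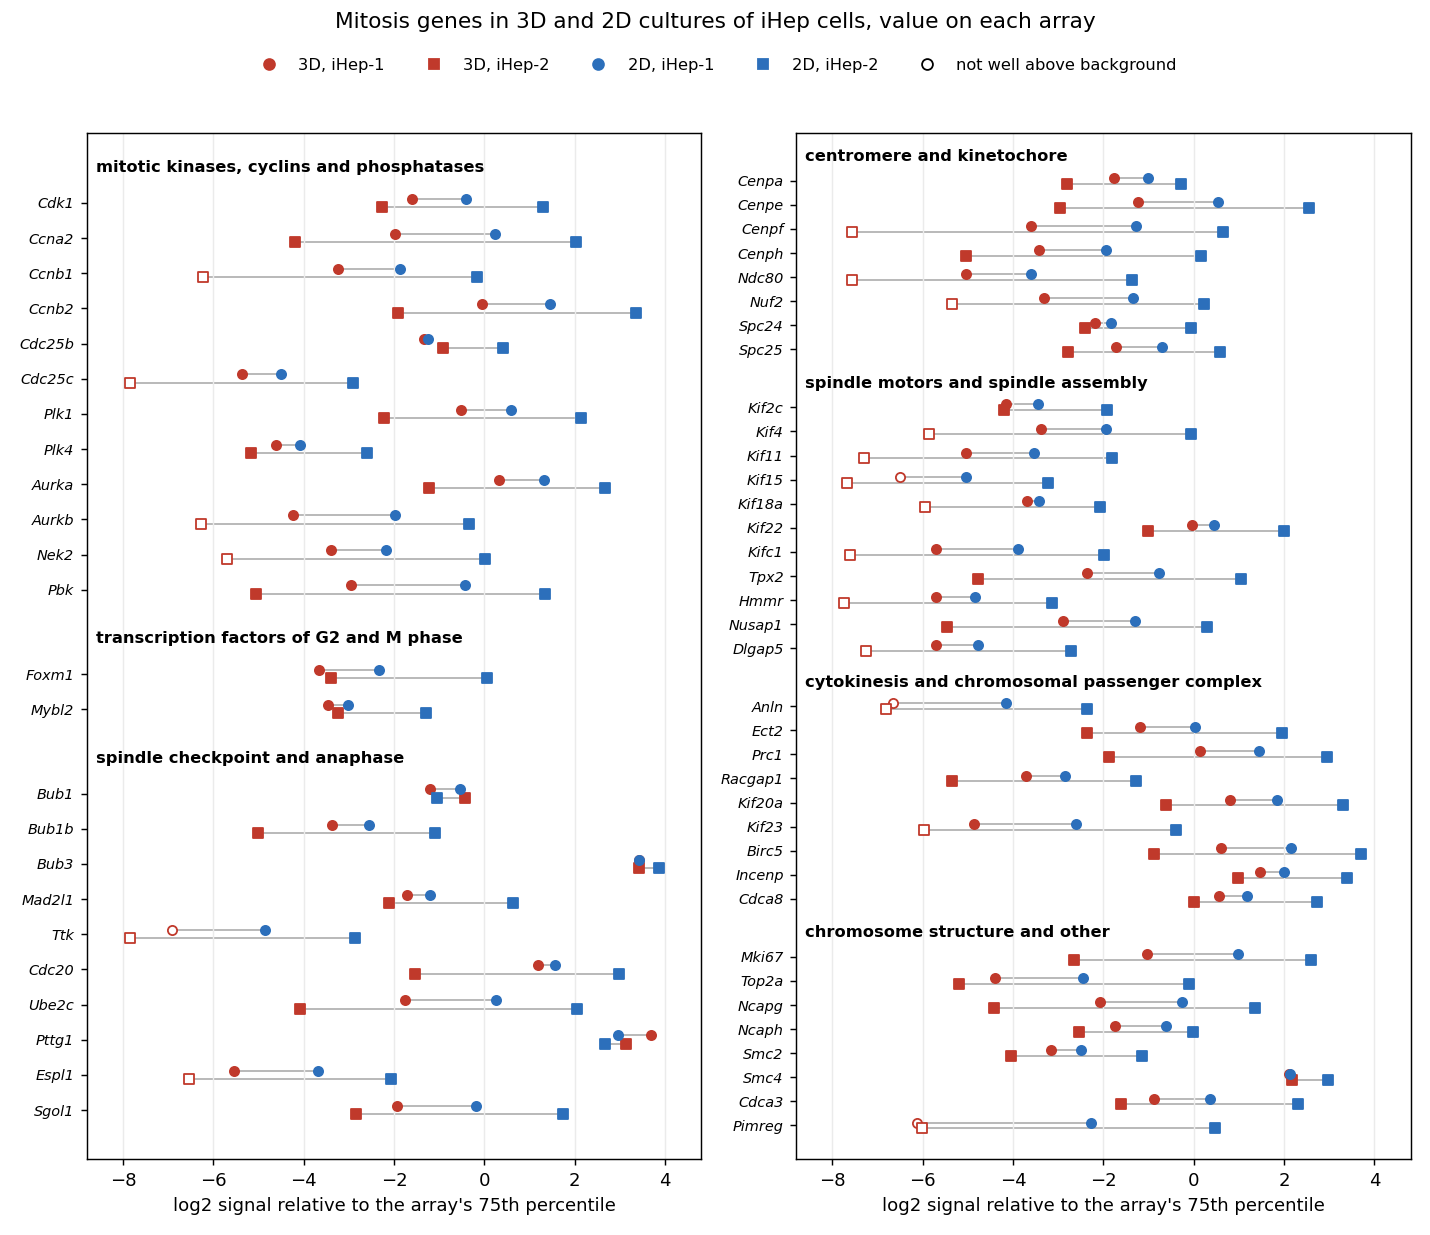
Log2 intensity relative to the 75th percentile of the array for each of the 60 genes on the 4 arrays, 3D before 2D, by role. For most genes the 2D array of iHep-2 is the highest point and the 3D array of iHep-2 the lowest, and the Pttg1, Bub1, Bub3 and Smc4 points lie close together.

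Among the 12 mitotic kinases, cyclins and phosphatases, all 12 were lower in 3D culture in both experiments, and the difference was 2-fold or more in both for 8. Cdk1, the kinase that drives entry into mitosis, stood at -1.61 and -2.27 in 3D culture, against -0.41 and 1.31 in 2D culture. Its arrays did not overlap, and the differences were -1.21 and -3.58. Ccnb1, cyclin B1, the partner that activates Cdk1 at mitotic entry, stood at -3.24 and -6.23 in 3D culture, against -1.86 and -0.15 in 2D culture. Its differences of -1.38 and -6.07 rest in iHep-2 on a 3D value not well above background, and the 2 further probes of the gene gave -1.85 and -1.47 in iHep-1 and -6.88 and -6.99 in iHep-2. Ccnb2, cyclin B2, and Ccna2, cyclin A2, were well above background throughout. Ccnb2 had differences of -1.50 and -5.27, and Ccna2 of -2.20 and -6.23.

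Plk1, a kinase of centrosome maturation and mitotic entry, stood at -0.52 and -2.21 in 3D culture, against 0.59 and 2.14 in 2D culture. Its differences were -1.11 and -4.35 with no overlap of the arrays. Aurka, the Aurora kinase of the spindle poles, stood at 0.34 and -1.23 in 3D culture, against 1.32 and 2.67 in 2D culture, and differed by -0.98 and -3.90. Aurkb, the Aurora kinase of the centromere and midzone, stood at -4.24 and -6.28 in 3D culture, against -1.97 and -0.35 in 2D culture, the 3D value of iHep-2 being not well above background. Both Aurora kinases thus had their 2 lowest values in 3D culture. Pbk, a kinase active in mitosis, had the largest mean difference of the list, with -2.96 and -5.06 in 3D culture, against -0.43 and 1.35 in 2D culture, and differences of -2.53 and -6.41. Nek2, a kinase that parts the centrosomes, differed by -1.21 and -5.69, its 3D value in iHep-2 being not well above background. Plk4, the kinase that starts centriole duplication, had smaller differences of -0.52 and -2.55.

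The Cdc25 phosphatases remove the inhibitory phosphates from Cdk1. Cdc25b had the smallest mean difference of this list, at -1.33 and -0.92 in 3D culture, against -1.25 and 0.42 in 2D culture. Its arrays overlapped, and the differences were -0.075 and -1.34. Cdc25c differed by -0.87 and -4.95 with a 3D value in iHep-2 not well above background, and its second probe, which was kept through the 2D arrays, gave -2.46 and -3.95.

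Both transcription factors of the list, which bind genes of G2 and M phase, were lower in 3D culture in both experiments. Foxm1, a forkhead factor, stood at -3.65 and -3.40 in 3D culture, against -2.32 and 0.069 in 2D culture, and differed by -1.33 and -3.47. Mybl2, the B-Myb partner of the MuvB complex, stood at -3.46 and -3.25 in 3D culture, against -3.02 and -1.29 in 2D culture, and differed by -0.44 and -1.96. For both factors the 3D values of the 2 experiments lay close together and the 2D values lay apart.

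The spindle checkpoint and anaphase list of 10 held the exceptions. Of the 10, 8 were lower in both experiments, 4 of them by 2-fold or more in both. Ttk, the kinase that starts checkpoint signalling at kinetochores, was not well above background on either 3D array, with -6.92 and -7.85, against -4.86 and -2.87 in 2D culture. On the mean over both experiments, its intensity was at least 3.84-fold lower in 3D culture. The measured means were -7.39 in 3D and -3.87 in 2D culture, and the adjusted p was 0.684 in limma. For such a bound, each 3D array counted with its lowest signal well above background, or with the probe's value where that was higher. The mean of these was set against the 2D mean, so that the measured fold within a single experiment can be smaller. The bound is approximate, since some probes not well above background had values above that lowest signal. Cdc20, the activator of the APC/C that the checkpoint restrains, stood at 1.19 and -1.53 in 3D culture, against 1.56 and 2.98 in 2D culture. Its differences were -0.37 and -4.50, so that the arrays of iHep-1 lay close together and those of iHep-2 did not. Ube2c, the E2 enzyme of the APC/C, had the largest mean difference of the list, with -1.76 and -4.09 in 3D culture, against 0.25 and 2.04 in 2D culture, and differences of -2.01 and -6.13.

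Bub1b, the BubR1 kinase-like subunit of the checkpoint complex, differed by -0.81 and -3.92, and Mad2l1, the Mad2 subunit that binds Cdc20, by -0.50 and -2.75. Espl1, the separase that cleaves cohesin at anaphase, differed by -1.86 and -4.47, its difference in iHep-2 resting on a 3D value not well above background. Sgol1, the shugoshin that protects cohesin at centromeres, differed by -1.74 and -4.57. Bub3, a checkpoint subunit that binds Bub1 and BubR1, stood at 3.41 and 3.42 in 3D culture, against 3.42 and 3.86 in 2D culture, and differed by -0.00096 and -0.45 with overlapping arrays.

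Pttg1 and Bub1 departed from the rest, and their probe letters are shown so that the measured stretch of each gene can be placed. Pttg1 encodes securin, the inhibitor of separase that the APC/C destroys at anaphase, and it has 1 probe, at chr11:43233801-43233860 on the minus strand. Bub1, the kinase that recruits checkpoint proteins to kinetochores, has 2 kept probes on the minus strand (mm9 throughout). Its first probe lies at chr2:127626988-127627047 and carries the accession of 1 transcript record, and its second probe lies at chr2:127626326-127626385 and carries that of another. The second had the higher mean and stood for the gene.
Pttg1: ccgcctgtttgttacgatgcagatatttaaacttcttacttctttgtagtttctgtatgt
Bub1, first probe: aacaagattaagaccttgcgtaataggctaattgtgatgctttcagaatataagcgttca
Bub1, second probe: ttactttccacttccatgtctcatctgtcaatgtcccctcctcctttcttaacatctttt
Pttg1 stood at 3.70 and 3.13 in 3D culture, against 2.96 and 2.66 in 2D culture. Both 3D arrays were higher than both 2D arrays, as for 19.8% of all genes, and the differences were 0.73 and 0.46 with an adjusted p of 0.704 in limma. With each array scaled to its spike-in probes in place of the 75th percentile, the mean difference of Pttg1 was -0.50, beside a median of -1.08 over all genes. The second Bub1 probe stood at -1.21 and -0.42 in 3D culture, against -0.55 and -1.04 in 2D culture, and differed by -0.66 and 0.62 with overlapping arrays. The first Bub1 probe stood at -3.57 and -7.73 in 3D culture, against -1.48 and 0.062 in 2D culture, the 3D value of iHep-2 being not well above background. Its differences of -2.09 and -7.79 were negative in both experiments and larger in size than those of the other 9 genes of the list. The 2 probes of Bub1 were the most discordant pair on the list, 8.41 log2 units apart in iHep-2.

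All 8 centromere and kinetochore genes were lower in 3D culture in both experiments, 6 of them by 2-fold or more in both. Cenpf, a large kinetochore protein that builds up in G2, stood at -3.60 and -7.57 in 3D culture, against -1.28 and 0.65 in 2D culture. Its differences were -2.32 and -8.22, and the size in iHep-2 is uncertain because the 3D value there was not well above background. Ndc80, the subunit of the complex of that name that holds microtubule ends, stood at -5.04 and -7.56 in 3D culture, against -3.61 and -1.36 in 2D culture. Its differences were -1.43 and -6.19, the 3D value of iHep-2 again being not well above background.

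The other 3 subunits of the Ndc80 complex differed in size. Nuf2 differed by -1.97 and -5.58, with the same limit on its 3D value in iHep-2, and Spc25 by -1.01 and -3.36. Spc24 had the smallest mean difference of the list, at -2.19 and -2.40 in 3D culture, against -1.82 and -0.065 in 2D culture, and differed by -0.36 and -2.34. Cenpa, the histone variant that marks centromeres, differed by -0.76 and -2.53. Cenpe, the kinetochore motor that moves chromosomes to the metaphase plate, differed by -1.78 and -5.51, and Cenph, a subunit of the inner kinetochore, by -1.47 and -5.21.

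Each of the 11 genes of spindle motors and spindle assembly was lower in 3D culture in both experiments, 6 of them at least 2-fold in both. Kif11, the motor that pushes the spindle poles apart, stood at -5.04 and -7.30 in 3D culture, against -3.53 and -1.82 in 2D culture, its 3D value in iHep-2 being not well above background. Tpx2, which activates Aurora A and nucleates spindle microtubules, stood at -2.35 and -4.77 in 3D culture, against -0.76 and 1.04 in 2D culture. The differences were -1.51 and -5.48 for Kif11, and for Tpx2 they were -1.59 and -5.81 with all 4 arrays well above background. Kif2c, a motor that takes microtubule ends apart, had the smallest mean difference of the list, with -4.15 and -4.21 in 3D culture, against -3.46 and -1.92 in 2D culture, and differences of -0.70 and -2.29.

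Kifc1, a minus-end motor that bundles spindle microtubules, has an uncertain identity on the array. Its single probe is named Kifc1 in the files, but the probe's accession belongs to Kifc5b, a close relative, in the RefSeq gene table. The probe is shown for that reason. The files place it at chr17:27062844-27063223 on the plus strand (mm9), a span longer than the probe. The promoter window of Kifc1 used below starts at chr17:33890584 on another build (GRCm38.p6). Position and accession thus both set the probe apart from Kifc1, and whether it also detects Kifc1 was not tested.
Kifc1 or Kifc5b: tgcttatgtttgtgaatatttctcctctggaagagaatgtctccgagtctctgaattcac
The probe stood at -5.71 and -7.61 in 3D culture, against -3.89 and -1.98 in 2D culture, and differed by -1.82 and -5.63, its 3D value in iHep-2 being not well above background.

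Of the other motors, Kif4, a chromosome-bound kinesin, differed by -1.45 and -5.80, and Kif18a, which restrains chromosome oscillation, by -0.28 and -3.86. Both had 3D values in iHep-2 not well above background. Kif22, the motor that pushes chromosome arms outwards, differed by -0.50 and -3.00. Kif15, a kinesin that supports spindle bipolarity, was not well above background on either 3D array. On the mean over both experiments, its intensity was at least 3.19-fold lower in 3D culture, beside a measured 2.76-fold in iHep-1 alone. The means were -7.09 in 3D and -4.13 in 2D culture (adjusted p 0.684 in limma). Of the microtubule-binding spindle proteins, Nusap1 differed by -1.59 and -5.76. Hmmr differed by -0.88 and -4.61 and Dlgap5 by -0.91 and -4.55, each with a 3D value in iHep-2 not well above background.

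Cytokinesis and the chromosomal passenger complex, the Aurora B complex that moves to the midzone, were represented by 9 genes, all lower in 3D culture in both experiments, 6 of them at least 2-fold in both. Anln, the anillin scaffold of the contractile ring, was not well above background on either 3D array, with -6.66 and -6.82, against -4.15 and -2.37 in 2D culture. On the mean over both experiments, its intensity was at least 5.85-fold lower in 3D culture, beside a measured 5.72-fold in iHep-1 alone. The means were -6.74 in 3D and -3.26 in 2D culture, with an adjusted p of 0.684 in limma. Racgap1 and Kif23 form centralspindlin, which places the cleavage furrow. Racgap1 stood at -3.70 and -5.35 in 3D culture, against -2.85 and -1.29 in 2D culture, and differed by -0.86 and -4.06. Kif23 stood at -4.87 and -5.97 in 3D culture, against -2.61 and -0.39 in 2D culture, and differed by -2.26 and -5.58. Its 3D value in iHep-2 was not well above background.

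Ect2, the exchange factor that activates RhoA at the furrow, differed by -1.22 and -4.32, and Prc1, which bundles the midzone microtubules, by -1.32 and -4.82. Kif20a, the motor that carries the passenger complex to the midzone, differed by -1.03 and -3.93. Birc5, the survivin subunit of that complex, stood at 0.60 and -0.89 in 3D culture, against 2.16 and 3.71 in 2D culture, and differed by -1.56 and -4.59 with no overlap. Cdca8, its borealin subunit, differed by -0.62 and -2.73. Incenp, the subunit that holds Aurora B, had the smallest mean difference of this list, at 1.46 and 0.98 in 3D culture, against 2.01 and 3.39 in 2D culture, with differences of -0.55 and -2.41.

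The 8 genes of chromosome structure, Mki67 among them, were all lower in 3D culture in both experiments, 6 of them at least 2-fold in both. Top2a, the topoisomerase that untangles sister chromatids, stood at -4.40 and -5.19 in 3D culture, against -2.45 and -0.10 in 2D culture, and differed by -1.95 and -5.09. Pimreg, a nuclear protein of dividing cells, had the largest mean difference of this list and was not well above background on either 3D array, with -6.13 and -6.02, against -2.28 and 0.47 in 2D culture. On the mean over both experiments, its intensity was at least 30.0-fold lower in 3D culture, beside a measured 14.4-fold in iHep-1 alone. The means were -6.07 in 3D and -0.90 in 2D culture, with an adjusted p of 0.684 in limma. Cdca3, a cell division protein that promotes mitotic entry, differed by -1.25 and -3.91.

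Condensin subunits, which compact mitotic chromosomes, were uneven. Ncapg, a subunit of condensin I, differed by -1.82 and -5.77, and Ncaph, of the same complex, by -1.14 and -2.52. Smc2, a core subunit of both condensins, differed by -0.66 and -2.90, and its 4 kept probes were 1.41 log2 units apart in iHep-1 and 1.85 in iHep-2. Smc4, the partner of Smc2, stood at 2.10 and 2.17 in 3D culture, against 2.12 and 2.97 in 2D culture, and differed by -0.024 and -0.80 with overlapping arrays, the smallest mean difference of the list.

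Agreement between probes could be seen for the 17 genes with several kept probes. Apart from Bub1, Smc2, Cdc25c and Kif23, the kept probes of a gene lay within 0.48 log2 units of each other in iHep-1 and within 0.92 in iHep-2. The probes of Kif23 were 1.40 apart in iHep-2 and those of Cdc25c 1.60 apart in iHep-1. Besides the second Bub1 probe, 2 further kept probes of these 17 genes had a positive difference in iHep-1 or iHep-2. They belong to Cdc25b, with 0.050 and -1.11, and to Smc4, with 0.15 and -0.70, genes whose used probes were near 0 in iHep-1.

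The experiments could also be set against each other within a culture. In 2D culture, iHep-2 had the higher value for 58 of the 60 genes, against 46.2% of all genes, and 54 were at least 2-fold higher, against 9.84%. In 3D culture, iHep-2 had the lower value for 53 of the 60, against 49.8% of all genes, and 37 were at least 2-fold lower, against 10.5%. Of the 41 genes well above background on all 4 arrays, 35 were lower and 21 at least 2-fold lower in that comparison, with a median of -1.04. Of all 14571 genes well above background on all 4 arrays, 7137 were lower and 1056 at least 2-fold lower there. Both held for 52 of the 60 genes and for 16.2% of all genes. The median of iHep-2 minus iHep-1 was -1.46 in 3D and 1.69 in 2D culture over the 60 genes, beside 0.0037 and -0.049 over all genes. These differences use the same 4 arrays as the culture differences above and are another view of them, with no test, since each is 1 array against 1 array.

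**Figure D3:**
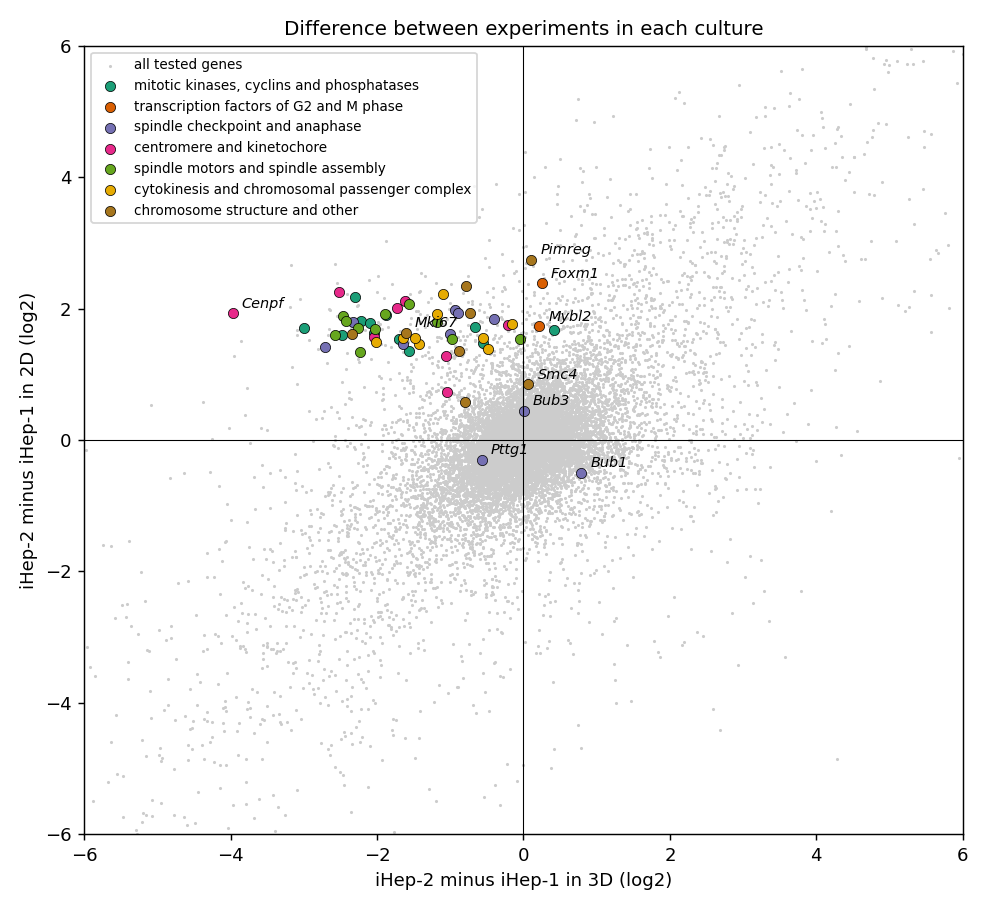
Difference between experiments, iHep-2 minus iHep-1 in log2 units, in 3D culture and in 2D culture for each of the 60 genes, beside the same over all tested genes. The members' median is -1.46 in 3D and 1.69 in 2D culture, where the medians of all genes lie near 0.

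In 2D culture the exceptions were few. Bub1 with -0.49 and Pttg1 with -0.30 were the 2 genes lower in iHep-2, and Bub3, Ncaph, Cenpa and Smc4, with 0.45, 0.58, 0.73 and 0.85, were higher by less than 1 log2 unit. In 3D culture, Bub1, Cdc25b, Foxm1, Mybl2, Pimreg, Smc4 and Bub3 were the 7 genes higher in iHep-2, by 0.0046 to 0.79. Among the genes well above background on all 4 arrays, Cdc20 had the most negative value in 3D culture, -2.71, and in 2D culture the highest value of the list was that of Pimreg, 2.75.

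Further genes of mitosis that are not on the list were examined as 6 groups. Over all tested genes, 33% were lower in both experiments, 33.2% were higher in both and 2.13% were at least 2-fold lower in both. Of 29 further kinetochore and centromere genes with a value, out of 30, 22 were lower in both experiments, 4 were higher in both and 9 were lower by 2-fold or more in both. Nsl1, of the Mis12 complex, differed by -1.83 and -4.10, and Ska2, of the Ska complex at kinetochores, by -1.05 and -2.22. The 4 higher in both were Zwint with 0.0035 and 0.26, Zw10 with 0.35 and 0.32, Hjurp with 0.55 and 0.34, and Mad1l1 with 0.48 and 0.90.

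Of 29 further spindle and cytokinesis genes, 24 were lower in both experiments, 1 was higher in both and 12 were lower by 2-fold or more in both. Kif18b, a microtubule-end motor, differed by -2.62 and -5.37, Kif14, a motor of cytokinesis, by -2.06 and -4.82, and Troap by -1.44 and -2.58. None of these 3 was well above background in 3D culture, so that they were kept through their 2D arrays and had to differ. On the mean over both experiments, their intensities were at least 4.90-fold, 3.43-fold and 3.04-fold lower in 3D culture. Troap measured 2.72-fold lower in iHep-1 alone. Rhoa, the GTPase of the furrow, was the 1 higher in both, by 0.36 and 0.14.

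Of 19 further regulators of entry and exit, 11 were lower in both experiments, 4 were higher in both and 4 were lower by 2-fold or more in both. Melk differed by -1.79 and -5.56, with a 3D value in iHep-2 not well above background, and Fbxo5, the Emi1 inhibitor of the APC/C, by -1.28 and -2.58. Higher in both were Wee1, the kinase that inhibits Cdk1, with 1.35 and 0.80, Cdca2 with 0.84 and 3.85, Cdc14b with 0.27 and 0.69, and Arpp19 with 0.24 and 0.18. As the mean over its kept probes, Cdca2 had a mean difference of -0.80 and Arpp19 of -0.092.

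The APC/C itself lay near the median of all genes. Of its 12 subunits, 7 were lower in both experiments, against 33% of all genes, and 3 were higher in both (Anapc2, Anapc7 and Anapc13), against 33.2%. At least 2-fold lower in both were 0 of the 12, against 2.13% of all genes. The median differences were -0.18 and -0.29, and the subunits ranged from -0.58 to 0.33 in iHep-1 and from -0.87 to 0.43 in iHep-2. With spike-in scaling their median was -1.34, beside -1.08 over all genes. The APC/C is also active in G1 phase, and its cofactors Cdc20 and Ube2c above belong to the mitotic list.

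Of 14 cohesin and further condensin subunits, 9 were lower in both experiments, 1 was higher in both (Pds5a, with 0.28 and 0.62) and 1 was at least 2-fold lower in both. That gene was Ncapg2, of condensin II, with differences of -1.19 and -3.21, while Ncapd3 and Ncaph2 of the same complex differed by -0.51 and -0.64 in iHep-1 and by -1.10 and -0.71 in iHep-2. Of 20 E2F, RB and MuvB regulators, 12 were lower in both, 4 were higher in both and 2 were lower by 2-fold or more in both. These 2 were the atypical repressors E2f7, with differences of -1.91 and -6.08, and E2f8, with -1.12 and -4.15. E2f7 was not well above background on either 3D array, so that it was kept through its 2D arrays and had to differ. On the mean over both experiments, its intensity was at least 7.96-fold lower in 3D culture, beside a measured 3.77-fold in iHep-1 alone. E2f8 had a 3D value in iHep-2 not well above background. Higher in both were E2f2 with 1.12 and 1.50, Rbl2 with 0.075 and 0.32, Lin37 with 0.46 and 0.52, and Nfyb with 0.50 and 0.38. With spike-in scaling, all of the genes just named as higher in both, in these 6 groups, had negative mean differences, with the exceptions of Cdca2 and E2f2. That scaling moved the median of all genes to -1.08, and all of these mean differences lay above that median.

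Promoters of mitotic genes are known for a pair of elements, the CCAAT box bound by the factor NF-Y and the cell cycle genes homology region, with the letters TTTGAA, bound by the MuvB complex. Promoter windows from 250 bases before to 50 bases after the start were read from RefSeq sequence (GRCm38.p6) for 48 of the 60 genes, in 51 windows. CCAAT and TTTGAA were searched on both strands, so that ATTGG and TTCAAA also counted, and a match of CCAAT can share at most 1 end letter with a match of TTTGAA. At least 1 TTTGAA was found in 68.6% of the members' windows, against 12.5% of the 13877 windows of tested genes and 17.9% of all 32851 windows. At least 1 CCAAT was found in 74.5% of the members' windows, against 37.7% of those of tested genes and 37.4% of all windows. Both motifs were present in 60.8% of the members' windows, against 4.96% of those of tested genes and 6.95% of all. Among the members, 33 of 45 TTTGAA matches lay within 50 bases of the start, and 61 of 82 CCAAT matches lay in the last 150 bases before it, windows of 1 gene that overlap being counted each.

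In the 6 further groups, TTTGAA was found in 36.7% of 30 windows of kinetochore and centromere genes, 48.1% of 27 of spindle and cytokinesis genes and 35.3% of 17 of entry and exit regulators. It was found in 7.69% of 13 windows of APC/C subunits, 36.4% of 11 of cohesin and condensin subunits and 32% of 25 of E2F, RB and MuvB regulators. These shares stand beside the 12.5% of tested genes, and a group's share was not tested against its differences. Among the members, the 32 genes with TTTGAA had median differences of -1.29 and -4.46, and the 16 without had medians of -1.17 and -4.21. The difference was not tested, and 12 members lacked a window. For Kifc1, 1 of the 32, the window was set beside the probe whose accession belongs to Kifc5b. A match is a description of letters and not of binding.

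The promoter windows of 4 genes that were lower in both experiments are shown beside that of Pttg1, which was not. Capitals mark each match to CCAAT or TTTGAA on either strand, and the letters run 5′ to 3′ on the strand of the gene. The windows are Ccnb2 at chr9:70421505-70421804 on the minus strand, Cdc20 at chr4:118437294-118437593 on the minus strand, Ube2c at chr2:164769679-164769978 on the plus strand, Kif23 at chr9:61946750-61947049 on the minus strand and Pttg1 at chr11:43425932-43426231 on the minus strand, all on GRCm38.p6 from RefSeq.
Ccnb2: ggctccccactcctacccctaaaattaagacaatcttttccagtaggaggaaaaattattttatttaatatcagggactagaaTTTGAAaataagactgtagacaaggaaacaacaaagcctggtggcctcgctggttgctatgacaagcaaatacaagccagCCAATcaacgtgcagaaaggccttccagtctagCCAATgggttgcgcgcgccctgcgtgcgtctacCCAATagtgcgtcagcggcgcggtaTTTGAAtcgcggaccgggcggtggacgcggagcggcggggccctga
Cdc20: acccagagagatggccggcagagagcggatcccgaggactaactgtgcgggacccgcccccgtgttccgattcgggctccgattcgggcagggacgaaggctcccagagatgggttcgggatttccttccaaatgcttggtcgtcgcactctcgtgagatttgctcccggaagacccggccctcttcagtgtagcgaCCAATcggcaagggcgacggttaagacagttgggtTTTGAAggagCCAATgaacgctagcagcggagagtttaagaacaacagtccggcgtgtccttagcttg
Ube2c: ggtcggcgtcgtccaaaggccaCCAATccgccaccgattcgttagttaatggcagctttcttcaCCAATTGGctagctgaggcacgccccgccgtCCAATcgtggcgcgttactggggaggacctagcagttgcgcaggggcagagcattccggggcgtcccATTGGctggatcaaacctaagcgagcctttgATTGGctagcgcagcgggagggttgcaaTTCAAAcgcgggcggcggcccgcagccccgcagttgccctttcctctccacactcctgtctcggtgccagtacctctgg
Kif23: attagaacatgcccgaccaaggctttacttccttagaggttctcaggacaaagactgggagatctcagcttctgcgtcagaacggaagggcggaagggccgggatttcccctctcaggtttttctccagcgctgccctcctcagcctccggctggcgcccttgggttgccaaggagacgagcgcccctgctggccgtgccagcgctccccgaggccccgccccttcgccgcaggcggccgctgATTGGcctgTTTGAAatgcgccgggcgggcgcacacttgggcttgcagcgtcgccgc
Pttg1: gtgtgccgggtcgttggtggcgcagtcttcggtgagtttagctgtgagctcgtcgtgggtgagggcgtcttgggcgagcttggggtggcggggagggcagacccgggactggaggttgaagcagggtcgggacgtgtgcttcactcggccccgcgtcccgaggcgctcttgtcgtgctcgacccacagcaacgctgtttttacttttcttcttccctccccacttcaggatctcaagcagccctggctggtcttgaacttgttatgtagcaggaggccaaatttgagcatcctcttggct
Ccnb2 has 3 CCAAT and 2 TTTGAA matches, Cdc20 2 and 1, Ube2c 6 and 1, and Kif23 1 and 1. A pair of the CCAAT matches of Ube2c overlap as opposite strands of the same letters. The Pttg1 window has 0 of both, which says only that these letters are not in this window. Pttg1 and, by its used probe, Bub1 were the 2 members not lower in both experiments, and both were among the 16 genes without TTTGAA in their window. The rest of those 16 were lower in both experiments, and a link with the motif was not tested.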

How the data were processed

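Total RNA of 4 cultures was hybridised to 1-colour Agilent arrays of design 014868. Spot intensity on a linear scale, background-corrected by Agilent Feature Extraction, was read from the deposited scanner files. The file headers name version 10.7.1.1 of that software, and the submitters' processing notes name 9.5.1.1. Probe positions are on mm9, per the file headers. The deposited series table also holds linear intensity values, with medians of 26.3 for both iHep-1 arrays and 22.6 for both iHep-2 arrays. Its Spearman correlation with the processed signal was 0.999985 to 0.999991 per array, it was not centred on the genes, and the authors' scaling of it is not given in the sources used.

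From the deposited processed intensity, log2 values were computed and set relative to the 75th percentile of all noncontrol spots on the array. Nonuniform and outlier spots were left out (72 to 85 per array), and no noncontrol spot was saturated. The 75th percentile was 594 and 399 in 3D culture, against 523 and 616 in 2D culture. A probe needed a signal well above background on 2 or more of the 4 arrays, and the probe with the highest mean stood for its gene. Names came from a RefSeq table (GRCm38.p6) by accession for 24844 of 41174 probes and by symbol for 7855, and the other 8475 kept the name in the files.

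The two-sided comparison of cultures used limma 3.58.1 (R 4.3.3), with Benjamini-Hochberg adjustment over all tested genes and a threshold of 0.05. The step was run on simulated data, where only the median estimated differences were checked, at a spread well below that of these data. The simulated arrays were not paired, so that check does not cover the rate of calls in these data. The design text makes each replicate number an experiment, which pairs the arrays, and across genes the 2 arrays of an experiment deviated together from their groups (r = 0.66). Alternatives were normexp background correction with an offset of 50, quantile and spike-in scaling (6 probes), the series table, stricter and no filters on dim probes, the mean over probes, the experiment as a block, an intensity trend with a robust prior, and leaving out each array.

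Array values are given for 19 fixed members, for those with the largest and smallest mean difference in each role, and for members higher in 3D culture in either experiment. Of the further lists, up to 3 genes with the smallest p and those higher in both experiments are named. A gene that this rule takes is not reported here. The members, lists and rules were chosen with earlier results of these data known.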

Additional observations from a re-analysis of the deposited data

Results flagged for a closer look

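Bub1 was singled out because its 2 experiments moved in opposite directions. The probe that stood for the gene differed, 3D minus 2D, by -0.66 in iHep-1 and by 0.62 in iHep-2. The difference between the experiments was not tested, there being a single array for each culture of each. The other kept probe of Bub1 differed by -2.09 and -7.79, the value of iHep-2 resting on a 3D signal not well above background.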

How the results depend on the processing

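The direction of the median over the 60 genes was the same under every alternative run, with -1.60 under normexp background correction and -3.94 under spike-in scaling as its extremes among those that keep all 4 arrays, and -3.75 to -2.01 with each array left out in turn. No gene was called under 8 of the 10 alternatives that keep all arrays, nor with any array left out (0 to 0). Spike-in scaling, which moved the median of all genes to -1.08, called 76 genes higher and 216 lower, among them 43 of the 60 (1.31% of all genes were called lower). That fit gave every gene the same variance, and its calls rest on this variance. The replicate block with an intensity trend and robust prior called 19 higher and 0 lower, none of the 60. With the replicate block alone there were 0 and 0 calls, the smallest adjusted p was 0.125 over all genes and 0.250 over the 60, and it changed no other call. Genes of the list at least 2-fold lower in both experiments, 37 in the reported fit, numbered 21 under normexp (0.79% of all genes), 57 under spike-in scaling (20.5%) and 22 of 41 with probes well above background on all 4 arrays (1.4%), where fewer genes are tested. That count could not be had with an array left out. The 36 genes lower at an unadjusted p under 0.05 became 0 without 3D replicate 2 (1.09% of all genes) and 7 without 2D replicate 2 (0.924%), both of iHep-2, and were 38 and 47 without the 3D or 2D array of iHep-1 (2.74% in both). Mean differences changed sign for Bub1 under normexp (0.0013) and, with an array left out, ranged for Bub1 from -0.41 to 0.37, for Bub3 from -0.45 to 0.0013, for Cdc25b from -1.54 to 0.13, for Smc4 from -0.84 to 0.010, for Rbl2 from -0.22 to 0.61 and for Zwint from -0.099 to 0.37. Under spike-in scaling Pttg1 had -0.50, Zwint -0.97, Zw10 -0.77, Hjurp -0.66, Mad1l1 -0.41, Rhoa -0.85, Wee1 -0.027, Cdc14b -0.62, Arpp19 -0.89, Anapc2 -0.81, Anapc7 -0.92, Anapc13 -0.84, Pds5a -0.65, Rbl2 -0.90, Lin37 -0.61 and Nfyb -0.66. As means over kept probes, Zwint had -0.0084, Cdca2 -0.80 and Arpp19 -0.092. The cause was not tested in these cases. Signal over background limits the 19 genes that were not well above it in 3D culture of iHep-2.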

Other observations

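Not every probe for a member gave a signal. Of the 104 probes for the 60 genes, 17 were not well above background on any array and 7 were so on 1 array, and 80 were kept. One such dim probe for Plk4 differed by -0.082 in iHep-1 and 0.67 in iHep-2, 3D minus 2D, where the used probe of the gene differed by -0.52 and -2.55. Over the 17 probes the difference in iHep-2 was at most 1.58 log2 units in size.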
